A study of Bostrychia moritziana with 3 samples.

Results

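The comparison set RNA abundance in female gametophytes of the red alga Bostrychia moritziana beside that in tetrasporophytes, the spore-bearing stage of the same life cycle. Its members were the assembled transcripts with at least 1 RPKM in either library. RPKM scales the reads of a transcript by its length in kilobases and by the mapped reads of the library, in units of 1000000. These were 18774 of the 36534 transcripts listed in the series, and they held 99.6% of the summed RPKM of the female library and 99.1% of that of the tetrasporophyte library. Both groups came from strain 2746, kept as unialgal cultures at 20 °C with 16 h of light and 8 h of dark. The female group consisted of plants taken while they were making carpogonial branches, the filaments that carry the egg cell. The tetrasporophyte group had grown from released carpospores and was taken once its sporangia were mature. No genotype difference, transgene or drug is named in the labels, and whether thalli were pooled is not given in the sources used here. The series also holds a male gametophyte library, which is used below only to show levels.

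Red algae of this order alternate between free-living stages that look alike outside their reproductive organs. Gametophytes are haploid and of separate sex, and non-motile male gametes reach the carpogonium of the female. The fertilized female then carries a small carposporophyte, whose carpospores grow into the diploid tetrasporophyte, and meiosis in the tetrasporangia gives the spores from which the next gametophytes grow. The comparison therefore spans ploidy, reproductive organ and generation at once, and these cannot be told apart in it.

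There was 1 library on each side, so the spread between replicates is unknown, no test was made, and every difference below is one between these libraries. Transcripts carry an assembly number only. Neither gene names nor functions nor sequences accompany the numbers in the files, so markers of egg-bearing branches or of sporangia could not be checked against the labels, and no pathway is described. RNA came from whole thalli, in which fewer cells of a type and less RNA per cell cannot be told apart.

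Most of the members were detected in both libraries. Of the 18774 transcripts, 14545 stood at 1 RPKM or more in both libraries, 1397 did so in the female alone and 2832 in the tetrasporophyte alone. The median transcript had 8.73 RPKM in female plants and 10.8 RPKM in tetrasporophytes. Across the members the Spearman correlation of the libraries was 0.76, and it was 0.80 across the 14545, as a description, since transcripts are not replicates. The filter fell in a dense part of the data: 361 transcripts had a higher value between 1 and 1.1 RPKM, and 448 lay just outside, between 0.9 and 1 RPKM.

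Ratios were taken as log2(RPKM + 1) of the female minus that of the tetrasporophyte, a scale that understates differences of low transcripts. A transcript missing from 1 listing was set to 0.3 RPKM, the most that the listing allows, so its ratio is the smallest it can have. The median log2 ratio was -0.21, with quartiles of -0.87 and 0.37 and the 5th and 95th percentiles at -2.38 and 1.74. Below 0, that is higher in the tetrasporophyte, were 11198 transcripts (59.6%), and above 0 were 7557 (40.3%). Median-of-ratios scaling, which sets the typical ratio of transcripts detected in both libraries to 1, moved the log2 ratio by 0.22 and brought the median to -0.015. That scaling is computed from these same values, so it takes away a lead in the bulk of transcripts whatever its source. The slight lead of the tetrasporophyte there cannot be told apart from a difference in scaling.

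At the 4-fold level, a log2 ratio of 2, more transcripts were higher in the tetrasporophyte than in the female. There were 1357 tetrasporophyte-higher transcripts (7.23%) and 774 female-higher transcripts (4.12%), while 16643 (88.6%) were less than 4-fold apart. These percentages are themselves the background over all members, and no list of genes is read against them. After median-of-ratios scaling the counts were 1183 and 875, so the tetrasporophyte kept the larger count by a smaller margin. With a pseudocount of 0.1 RPKM, which admits transcripts at low levels, they were 2550 and 1307.

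The lead of the tetrasporophyte narrowed as the fold grew. At 2-fold there were 4040 transcripts (21.5%) on the tetrasporophyte side and 2088 (11.1%) on the female side, a ratio of counts of 1.93. At 8-fold the counts were 520 (2.77%) and 392 (2.09%), a ratio of 1.33. At 16-fold they were 189 and 170, and at 32-fold 68 and 66. On this scale, far-apart transcripts were therefore about equally many on both sides. The pseudocount keeps low transcripts out of the higher folds, and none between 3 and 10 RPKM can be 16-fold apart. That class held 497 tetrasporophyte-higher and 242 female-higher transcripts at 4-fold, so the scale sets part of the narrowing. The series of folds was not run with a lower pseudocount. Scaling by median of ratios turned the direction from 8-fold upward: 440 against 442 at 8-fold, 169 against 194 at 16-fold and 53 against 74 at 32-fold, with the female count the larger.

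**Figure D1:**
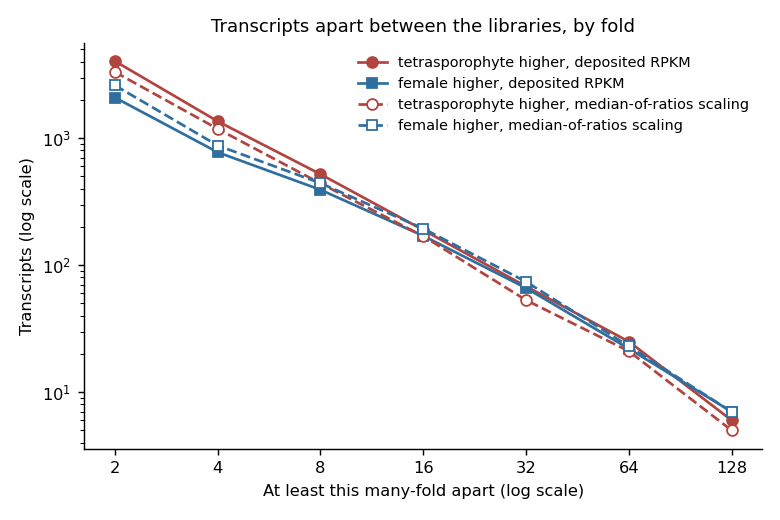
Number of transcripts (vertical axis, log scale) at least a given fold apart (horizontal axis, log scale) in each direction, for deposited RPKM (filled, solid) and after median-of-ratios scaling (open, dashed). The tetrasporophyte count is the larger at 2-fold and 4-fold under both, and from 8-fold upward the lines of both directions run close together.

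The share of transcripts apart was highest among the most abundant. Among the 256 transcripts that reached 300 RPKM in either library, 62 (24.2%) were 4-fold higher in the tetrasporophyte and 41 (16.0%) in the female. Among the 739 between 100 and 300 RPKM the counts were equal, at 83 (11.2%) each. Between 30 and 100 RPKM they were 260 (7.21%) and 156 (4.33%) of 3604, and between 10 and 30 RPKM 455 (7.28%) and 252 (4.03%) of 6246. The class from 3 to 10 RPKM held 497 (11.1%) and 242 (5.43%) of 4458. The excess on the tetrasporophyte side was thus largest in number at low and middle levels. No transcript under 3 RPKM can be 4-fold apart on this scale, and the 3471 in that class are counted as less apart.

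The typical ratio also moved with level. The median log2 ratio of female to tetrasporophyte was -0.44 from 1 to 3 RPKM, -0.33 from 3 to 10 RPKM and -0.16 from 10 to 30 RPKM. From 30 to 100 RPKM it was 0.01, from 100 to 300 RPKM it was 0.18, and at 300 RPKM or more it was -0.40. Low transcripts leaned to the tetrasporophyte, those between 100 and 300 RPKM leaned to the female, and a single scaling factor cannot centre all classes. The interquartile range widened from 1.03 between 10 and 30 RPKM to 3.07 at 300 RPKM or more, where 36.3% of transcripts were within 2-fold, against 72.6% in the former class.

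**Figure D2:**
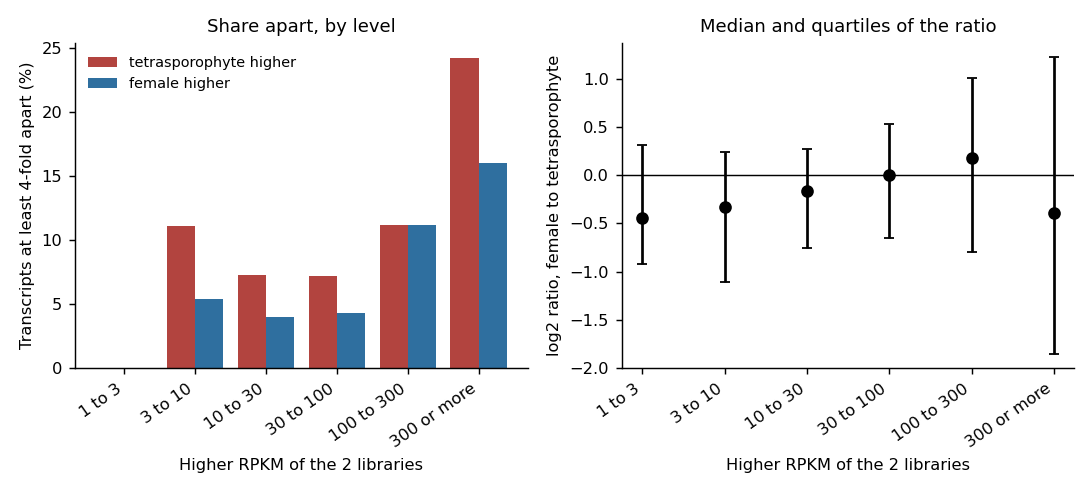
Left, percentage of transcripts at least 4-fold apart in each direction, by the higher RPKM of the pair of libraries. Right, median log2 ratio of female to tetrasporophyte on the log2(RPKM + 1) scale (points) with the lower and upper quartile (bars), in the same classes. The share apart is highest and the quartiles are widest at 300 RPKM or more.

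Transcripts apart made up a sizeable part of each library. The 1357 tetrasporophyte-higher transcripts held 17.0% of the summed tetrasporophyte RPKM and 1.895% of the female RPKM. For the 774 female-higher transcripts the shares were 14.6% of the female RPKM and 1.63% of the tetrasporophyte RPKM. The remaining 16643 transcripts held 83.1% of the female and 80.4% of the tetrasporophyte RPKM. By this measure both sides carried a similar share of RNA in transcripts 4-fold apart, although the counts differed. The tetrasporophyte-higher group ran from 3.02 to 2978 RPKM in the tetrasporophyte, with a median of 14.5 RPKM, and 145 members reached 100 RPKM. The female-higher group ran from 3 to 3453 RPKM in the female, with a median of 16.7 RPKM, and 124 members reached 100 RPKM. In each group 11 transcripts reached 1000 RPKM in the higher library, and none did in the lower one.

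The most abundant transcripts of each stage were mostly also present in the other. The 100 most abundant of the female held 17.2% of its summed RPKM and 8.00% of the tetrasporophyte's, with medians of 590 RPKM and 260 RPKM. Of these, 43 were within 2-fold and 38 stood 4-fold or more above the tetrasporophyte, and none stood 4-fold or more below it. The 100 most abundant of the tetrasporophyte held 16.5% of its RPKM and 9.43% of the female's, with medians of 667 RPKM and 270 RPKM. Here 35 were within 2-fold, 43 stood 4-fold or more above the female and 3 were 4-fold below it. Since each list was picked for being high in its own library, its members lean toward that library. Among the 1000 most abundant, 617 of the female's and 597 of the tetrasporophyte's were within 2-fold.

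Transcripts were named by a fixed rule: on each side the most abundant of those 4-fold apart, and the one with the largest ratio among those with at least 1 RPKM in both libraries. ISGT_1443 had 3453 RPKM in female plants, 776 RPKM in tetrasporophytes and 644 RPKM in males. It was the most abundant transcript of the female library and rank 37 in the tetrasporophyte, 4.45-fold lower in RPKM, with a log2 ratio of 2.15. It was thus a major transcript of every stage, with its highest level in the female. ISGT_16968 had 225 RPKM in female plants, 1.32 RPKM in tetrasporophytes and 93.6 RPKM in males. Its log2 ratio was 6.61, and its rank was 234 in the female and 16478 in the tetrasporophyte, so both gametophyte libraries were high and the tetrasporophyte low.

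On the tetrasporophyte side, ISGT_4121 had 2978 RPKM in tetrasporophytes, 228 RPKM in female plants and 793 RPKM in males. It was second in the tetrasporophyte and rank 231 in the female, a log2 ratio of -3.70, and its male level lay between the others. ISGT_39408 had 272 RPKM in tetrasporophytes, 2.53 RPKM in female plants and 9.59 RPKM in males. With rank 200 in the tetrasporophyte and 13604 in the female, its log2 ratio was -6.27. Its male level lay between the others, near the male median of 10.2 RPKM over all members with missing values at 0.3 RPKM. For these 4 transcripts the direction and the 4-fold level held under both other scalings and with a pseudocount of 0.1 RPKM. A lower pseudocount cannot make a ratio smaller, and median-of-ratios scaling moves ratios toward the female, so these could fail only in part.

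**Figure D3:**
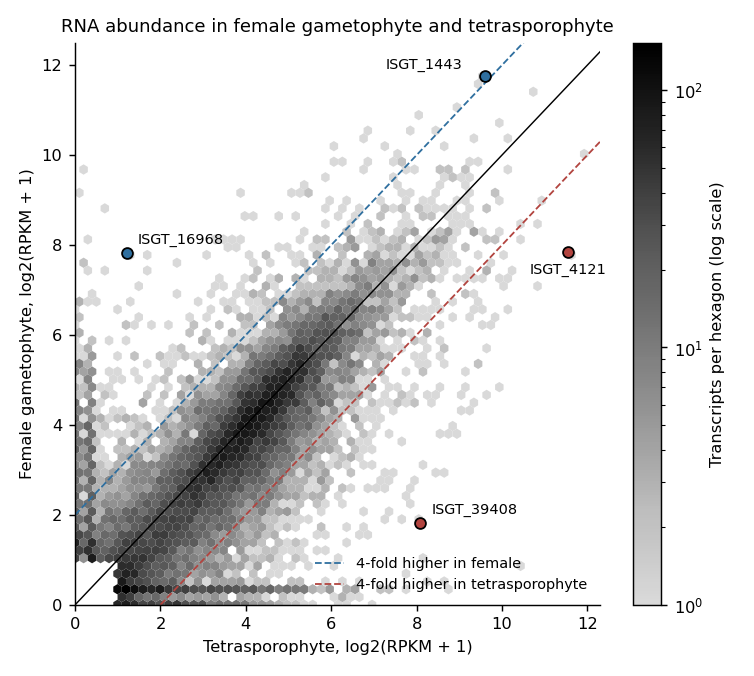
RNA abundance of the 18774 transcripts in the tetrasporophyte (horizontal) and the female gametophyte (vertical), both as log2(RPKM + 1). Hexagons are shaded by the number of transcripts, the solid line marks equal levels and the dashed lines mark 4-fold. The 4 named transcripts are marked, and the bands along the axes hold transcripts near 0 or missing in 1 library.

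Many members of each group were next to absent from the lower library. Among the 1357 tetrasporophyte-higher transcripts, 682 (50.3%) were at most 0.3 RPKM in the female or missing from its listing, with 330 missing, 189 at exactly 0 and 163 in between. Among the 774 female-higher transcripts, 447 (57.8%) were at most 0.3 RPKM in the tetrasporophyte or missing, with 172 missing, 110 at exactly 0 and 165 in between. Over all members, 4.26% were missing, 2.21% at 0 and 2.63% in between in the female. In the tetrasporophyte these shares were 2.03%, 1.48% and 1.60%. Transcripts near 3 RPKM can be 4-fold apart only if the lower library is near 0, so the threshold itself sets part of the shares in the groups. A value of 0 was not a sign of a high level in the other library. The 189 at 0 in the female reached at most 32.8 RPKM in the tetrasporophyte, and the 110 at 0 in the tetrasporophyte at most 81.3 RPKM in the female.

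Most of the RNA in each group belonged to transcripts present in both libraries. In the tetrasporophyte-higher group, 535 members (39.4%) had 1 RPKM or more in the female, and they held 82.4% of the group's tetrasporophyte RPKM. Among them were 156 with 10 RPKM or more in the female, at a median of 170 RPKM in the tetrasporophyte, which held 64.1%. In the female-higher group, 270 members (34.9%) had 1 RPKM or more in the tetrasporophyte and held 83.8% of the group's female RPKM. The 123 of these with 10 RPKM or more in the tetrasporophyte, at a median of 202 RPKM in the female, held 73.2%. In both directions, then, transcripts shared at different levels held more of the group's RNA than transcripts near-absent from the other library. Low transcripts cannot enter either group while at 10 RPKM in the lower library, so the medians of these subsets are high by construction.

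The male gametophyte, haploid like the female, is shown by level only, since any male comparison would share the female or the tetrasporophyte library. Its listing holds the same transcripts as the female one, so a transcript missing in the female has no male value either. Those missing from the tetrasporophyte listing had at most 0.3 RPKM in the male. The listings thus set part of the male level in both groups, and levels are given first over transcripts listed for both stages. Over the 1027 tetrasporophyte-higher transcripts so listed the median was 1.19 RPKM in female plants, 7.66 RPKM in males and 17.4 RPKM in tetrasporophytes. Over the 602 female-higher transcripts so listed it was 0.51 RPKM in tetrasporophytes, 12.6 RPKM in males and 21.4 RPKM in female plants. The male median lay between the other libraries in each group, and it was 11.5 RPKM over all members so listed. Each group was picked for female and tetrasporophyte values far apart, so a library not used in picking tends to lie between them. With missing values at 0.3 RPKM the male median was 3.17 RPKM over all 1357 and 8.37 RPKM over all 774.

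At 1 RPKM or more, male detection among listed transcripts was close to that of the listed members, but the listings leave out transcripts with a low or missing male level. At 1 RPKM or more in the male were 908 (88.4%) of the 1027 tetrasporophyte-higher and 561 (93.2%) of the 602 female-higher transcripts, against 16054 (91.3%) of the 17592 members listed for both. At 10 RPKM or more the shares were 43.4%, 58.6% and 54.0%. At most 0.3 RPKM in the male were 23 (2.24%), 8 (1.33%) and 373 (2.12%). Over the full groups, listed or not, the shares at 1 RPKM or more were 66.9% and 72.5%, against 85.5% of all members. Those at most 0.3 RPKM or missing in the male were 26.0% and 23.3%, against 8.28%. Among members at 100 RPKM or more in the higher library, male detection was nearly complete, with 135 of 145 tetrasporophyte-higher and 119 of 124 female-higher transcripts at 1 RPKM or more. The 145 had medians of 23.7 RPKM in female plants, 51.9 RPKM in males and 259 RPKM in tetrasporophytes. The 124 had medians of 23.9 RPKM in tetrasporophytes, 69.8 RPKM in males and 219 RPKM in female plants.

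Some transcripts reached 10 RPKM in one stage and were at most 0.3 RPKM or missing in the other. Of 274 such transcripts on the tetrasporophyte side, 175 were missing from the female listing and so had no male value. Of the 99 that were listed, 46 had 10 RPKM or more in the male and 53 were below that. Of 237 on the female side, 98 were missing from the tetrasporophyte listing, and of the other 139, 92 had 10 RPKM or more in the male and 47 were below. None of the listed ones was at most 0.3 RPKM in the male, which the listing rule fixes, so only the split at 10 RPKM describes the male library.

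**Figure D4:**
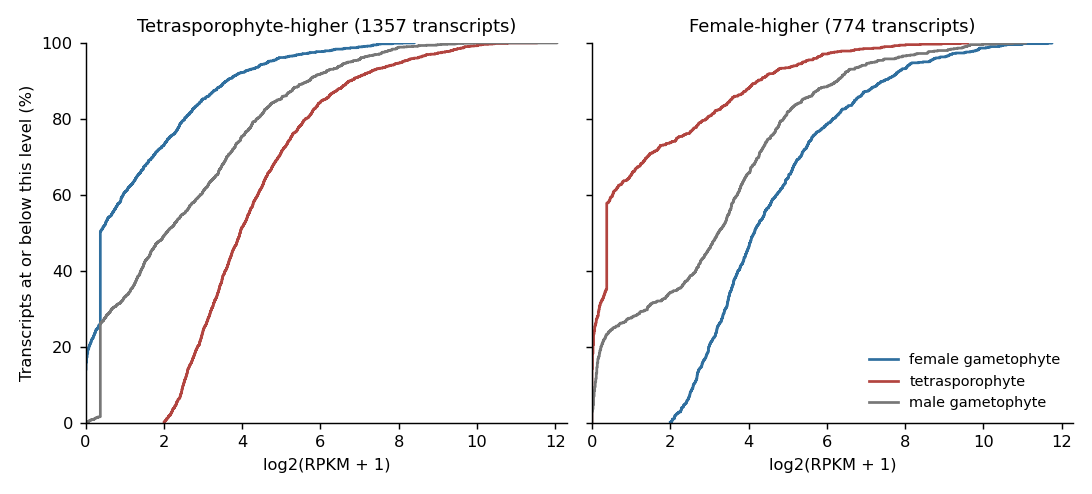
Cumulative percentage of transcripts at or below a level, log2(RPKM + 1), in the female, the tetrasporophyte and the male, for the 1357 tetrasporophyte-higher transcripts (left) and the 774 female-higher transcripts (right). The male curve, from a library not used to pick the groups, runs between the others over most of its length. The vertical steps mark transcripts missing from a listing, set to 0.3 RPKM, and at left the same 330 are missing in female and male.

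Transcripts of either group were not spread evenly over the assembly numbers. In the 48 blocks of 500 numbers with at least 100 members, the tetrasporophyte-higher share ran from 2.00 to 41.1%, with a median of 6.24%, and the female-higher share from 0 to 35.5%, with a median of 3.71%. The tetrasporophyte count was the larger in 33 of these blocks, the female count in 13, and 2 were equal. The female-higher peak lay at numbers 17500 to 17999, which had 128 female-higher transcripts among 361 members and 19 tetrasporophyte-higher ones. Among the same 48 blocks, the highest tetrasporophyte-higher share was at numbers 30000 to 30499, with 51 of 124 members and no female-higher transcript. Smaller blocks went higher, with 34 of 61 members at numbers 22000 to 22499.

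A pair of stretches, chosen after these values were seen, held the extremes. Numbers 17000 to 18499 held 812 members (4.33% of all) but 226 (29.2%) of the female-higher transcripts, and 36 tetrasporophyte-higher ones. The 226 had a median female level of 10.1 RPKM, 199 of them were at most 0.3 RPKM or missing in the tetrasporophyte, and 107 had 1 RPKM or more in the male. Numbers 20000 to 38499 held 891 members (4.75%) but 235 (17.3%) of the tetrasporophyte-higher transcripts, and 1 female-higher one. The 235 had a median of 5.84 RPKM and a maximum of 42.4 RPKM in the tetrasporophyte, and 229 were at most 0.3 RPKM or missing in the female. These stretches were therefore rich in transcripts near-absent from 1 library and poor in abundant ones, with 5.78% of the RPKM of the female-higher group and 2.18% of that of the tetrasporophyte-higher group.

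Outside both stretches, which were chosen after seeing the data, the ratio of counts was not smaller. Among the other 17071 members, 1086 (6.36%) were tetrasporophyte-higher and 547 (3.20%) female-higher, a ratio of counts of 1.99 against 1.75 over all members. Leaving out instead the 27 blocks with over 50% of transcripts at 0 in either library gave 1173 and 774, a smaller ratio of 1.52. All 27 passed that mark in the female, so in effect the rule removed blocks where the female was at 0. Those blocks held 184 tetrasporophyte-higher and 0 female-higher transcripts. This split and the smaller ratio are largely set by the rule. How the assembly numbers were assigned is not given in the sources used here, and its part in these counts was not tested. At the ends of the numbering, numbers up to 4999 held 308 tetrasporophyte-higher and 88 female-higher transcripts of 4921 members, and numbers 38500 to 43049 held 282 and 50 of 3922.

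**Figure D5:**
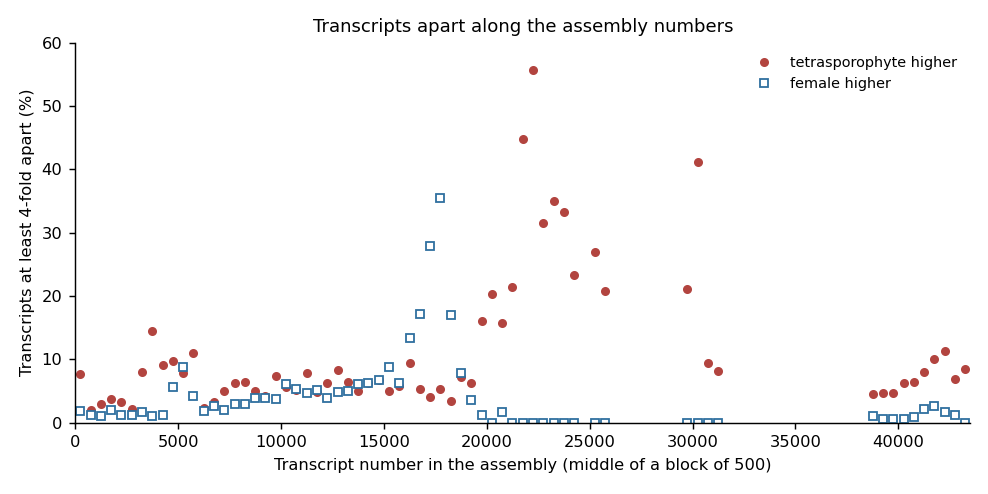
Percentage of members at least 4-fold apart in each direction (vertical) in blocks of 500 assembly numbers (horizontal), for the blocks with at least 20 members. Female-higher transcripts peak at numbers 17000 to 18499, and the tetrasporophyte-higher share is highest in blocks between 20000 and 38499, where few members lie.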

How the data were processed

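Per the labels' protocols, TRI Reagent was used for RNA and Illumina's own protocol for the libraries. The authors deposited 1 RPKM value per transcript, with 2 decimals, per the file headers. The tools of assembly, alignment and counting, and the read totals and lengths, were not given in the sources used here, so no counting interval was computed. From the steps of low values (0.3 to 3 RPKM), 60 log2 ratios of female to tetrasporophyte lay within 0.01 of -0.20, against 23.3 beside it. Read as equal numbers of reads, this puts the female library at 1.15 times the read total of the tetrasporophyte library. A second excess, of 52 against 26.7 at 0.01, leaves that reading uncertain.

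The female listing held 30448 transcripts and the tetrasporophyte listing 34695, with 28609 in both. Male values of transcripts missing from the latter were at most 0.3 RPKM, and tetrasporophyte values of those missing from the former at least 0.3 RPKM. Missing values (800 members in the female, 382 in the tetrasporophyte) were therefore read as at most 0.3 RPKM, which for the female assumes that the listing it shares with the male has the same rule. RPKM were used without scaling, with a pseudocount and a filter of 1 RPKM. Alternatives covered scaling, pseudocount, filter, threshold, missing and zero values, and assembly numbers. Members, rules and alternatives were chosen with earlier results of these data known. Named transcripts are, per direction, the most abundant one 4-fold apart and the one with the largest ratio among those at 1 RPKM or more in both libraries. The code was tested on simulated data. Python 3.11.15, numpy 2.4.6, pandas 2.3.3 and matplotlib 3.10.9 were used.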

Additional observations from a re-analysis of the deposited data

Results flagged for a closer look

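In data outside the comparison, 242 transcripts under 1 RPKM in both the female and the tetrasporophyte stood at 10 RPKM or more in the male library, with a median of 17.5 RPKM and a maximum of 1737 RPKM there. They drew attention as a signal in a library that the comparison does not use, and 2882 of the 17760 transcripts left out by the filter had 1 RPKM or more in the male.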

How the results depend on the processing

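No paired analysis was possible because each group has 1 library. In every alternative run at 4-fold, more transcripts were higher in the tetrasporophyte than in the female, and the 4-fold counts stayed within 1.5 times of 1357 and 774 except as follows. They were 2550 and 1307 with a pseudocount of 0.1 RPKM, 2626 and 1365 with no pseudocount and values below 0.3 RPKM raised to it, and 838 and 492 over transcripts above 0 in both libraries. A filter of 10 RPKM gave 860 on the tetrasporophyte side. At 2-fold the counts were 4040 and 2088, with 31.9% of the tetrasporophyte and 26.3% of the female RPKM, and at 8-fold 520 and 392, with 8.66% and 7.01%. The 1357 and the 774 were all among those called with the pseudocount of 0.1 RPKM, and the median-of-ratios list of the tetrasporophyte side shared 1183 with the 1357. These overlaps are fixed by arithmetic, since a lower pseudocount only widens ratios and this scaling moved ratios toward the female. The median log2 ratio of -0.21 stayed below 0 in each alternative. It was -0.015 with median-of-ratios scaling, -0.14 with sums scaled to 1000000, -0.072 with no filter, -0.11 with a filter of 10 RPKM, -0.19 over transcripts listed for both and -0.18 over those above 0 in both. Both lower pseudocount settings gave -0.24. Leaving out the 27 blocks with over 50% of transcripts at 0 in either library gave -0.17. All 27 passed that mark in the female, so this rule by itself favours a move toward the female. Leaving out numbers 17000 to 18499 and 20000 to 38499, an alternative chosen after seeing the data, gave -0.19. The lower pseudocounts admit transcripts under 3 RPKM, which cannot be 4-fold apart on unscaled values with a pseudocount of 1 RPKM. Scaling sums to 1000000 raises values before the pseudocount is added, so it can admit such transcripts too, and gave 1770 and 1101. For the other moves the cause was not tested. With 1 library a side and read totals unknown, neither biological nor counting error can be given for any ratio.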

Other observations

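Transcripts with consecutive assembly numbers were apart in the same direction more often than the members at large. Of 14985 pairs of consecutive numbers with both in the comparison, 544 began with a female-higher transcript, and the next one was female-higher in 74 (13.6%) and tetrasporophyte-higher in 35 (6.43%). Over all pairs the next one was female-higher in 3.68% and tetrasporophyte-higher in 6.36%. Of 955 pairs that began with a tetrasporophyte-higher transcript, the next was tetrasporophyte-higher in 108 (11.3%) and female-higher in 32 (3.35%). Across all pairs the log2 ratios of neighbours had a correlation of 0.10, as a description. The stretches of numbers rich in one direction contribute to these shares, and how much was not computed.

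Close to the 4-fold threshold, 110 tetrasporophyte-higher transcripts had log2 ratios between 2 and 2.1 in that direction and 133 lay just outside, between 1.9 and 2. On the female side these numbers were 56 and 65.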
